A study of Mus musculus with 16 samples.

Results

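Aminoacyl-tRNA synthetases attach each amino acid to its transfer RNA, the step that sets the meaning of the genetic code before the ribosome reads it. Mammalian cells keep a nuclear-encoded set for the cytosol and another for the mitochondrial matrix, where the few proteins encoded by mitochondrial DNA are made. Several cytosolic enzymes sit in a large multisynthetase complex held together by non-catalytic scaffold proteins, and the rest act outside it. Many cytosolic synthetase genes are known targets of ATF4, the transcription factor of the amino acid response, which the kinase GCN2 (gene Eif2ak4) switches on when uncharged transfer RNA accumulates. The colon epithelium renews itself continually and makes much secreted protein, so the charging of transfer RNA is a constant demand in it.

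The genes described are 39 of the 54392 gene symbols in the count table, taken by symbol: 37 synthetases and the scaffold genes Aimp1 and Aimp2. Of the synthetase genes, 21 encode cytosolic enzymes and 16 mitochondrial ones. The suffix 2 marks the mitochondrial enzymes with 2 exceptions among the 18 symbols that carry it: Tarsl2, a second cytosolic threonyl-tRNA synthetase, and the scaffold gene Aimp2. Gars and Kars each encode a cytosolic and a mitochondrial form of the enzyme from 1 gene, and are counted as cytosolic. Mars1 stands in the table under its older symbol Mars. All 39 genes passed the filter on low counts.

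The RNA came from colonocytes, the epithelial cells lining the colon, of C57BL/6 mice with no named transgene or mutation. For 3 weeks the mice received corn oil with cellulose (9 libraries) or fish oil with pectin (7 libraries), so the fat and the fibre changed together and cannot be told apart. Neither age nor sex is among the labels used here. By a summed count above 100 in 4 Y-linked genes, 9 libraries read as male, 6 with corn oil/cellulose and 3 with fish oil/pectin. The labels call the libraries biological replicates but name no animals, and p-values then measure only how these libraries vary, which may be technical in part. The names of 10 libraries begin with GC, 5 from each diet, and the remaining 6 comprise 4 corn oil/cellulose and 2 fish oil/pectin libraries. The meaning of this prefix was not given in the sources used here, and the model had a term for it. A log2 fold change compares fish oil/pectin with corn oil/cellulose and carries its standard error (SE), from edgeR's quasi-likelihood test, and a gene was called when its Benjamini-Hochberg adjusted p over 13825 tested genes was under 0.05. Levels are CPM, counts relative to the TMM-scaled library size, or, between genes, RPKM, which also divides by exon length in kilobases.

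Libraries held 13996288 to 19512755 counts, of which the 39 genes took 0.284% to 0.408%. Over all tested genes 42.7% were called, 22.1% higher and 20.6% lower with fish oil/pectin. Epcam, which encodes an epithelial adhesion molecule, lay between 2057 and 2793 CPM. Of 9 colon epithelium markers 3 rose (Krt8, Krt19 and Krt20) and 0 fell. Their sum in GC-named libraries was 21170 to 23260 CPM with corn oil/cellulose and 25680 to 31380 CPM with fish oil/pectin, with no overlap, and in the others 18270 to 19770 and 17820 to 18100 CPM. Of 6 goblet cell markers 2 rose (Agr2 and Spink4) and 0 fell, and their sum was 3569 to 10140 CPM with corn oil/cellulose and 3484 to 8973 CPM with fish oil/pectin. The part of these markers in the synthetase results was not tested. Of 8 tested T and NK cell markers, 6 were lower with fish oil/pectin. Their summed level in GC-named libraries was 23.3 to 51.6 CPM with corn oil/cellulose and 11.3 to 29.2 CPM with fish oil/pectin, and in the other libraries 7.67 to 12.2 and 7.50 to 10.8 CPM. Of 5 tested myeloid markers 1 was lower, and 0 of the fibroblast, smooth muscle, B cell or erythroid markers passed the filter, and none of these lists summed to more than 6.87 CPM in a library. In bulk RNA, fewer cells of a type and less RNA per cell cannot be told apart.

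Part of the promoters of these genes carries the short sequence that ATF4 binds together with C/EBP factors, the composite element written here as TGATGNAA, or TTNCATCA on the opposite strand. RefSeq promoter sequences, 250 bases before to 50 after the gene's start on GRCm38.p6, were matched by symbol for 30 of the 39 genes, and both strands were searched. For 23 of these 30 genes the first 30 transcribed bases occurred in a GENCODE transcript of the gene. For the rest they did not, and the start was not checked otherwise. The element was found in 5 of 14 cytosolic promoters (35.7%), 0 of 14 mitochondrial ones and 0 of 2 scaffold promoters, against 4.51% of 27025 genes. All 5 belong to the 8 cytosolic genes with a sequence that are commonly listed as ATF4 targets. For each of the 5 genes the match nearest the start is shown, because these genes are followed through the results. The printed stretches are 30 bases long and read 5′ to 3′ on the strand of the gene, with the element in capitals, and positions count from the RefSeq start, whose first transcribed base is 1.
Aars at 10, chr8:111033840-111033869, plus strand: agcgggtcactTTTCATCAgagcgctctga
Gars at -30, chr6:55037960-55037989, plus strand: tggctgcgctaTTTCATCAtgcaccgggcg
Iars at 8, chr13:49682126-49682155, plus strand: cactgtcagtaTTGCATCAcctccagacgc
Tars at -15, chr15:11399655-11399684, minus strand: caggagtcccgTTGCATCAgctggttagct
Yars at 4, chr4:129189895-129189924, plus strand: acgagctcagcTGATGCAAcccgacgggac
The first 4 stretches hold the element in the TTNCATCA orientation and Yars holds it in the other. A match is a description of these letters and not evidence of binding. The E-box CACGTG, a sequence bound by MYC and related factors, was present in 4 of 14 cytosolic and 1 of 14 mitochondrial promoters, against 8.09% of all genes. Of the 5 genes printed, Aars, Gars, Tars and Yars were called higher with fish oil/pectin and Iars was not called.

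Most cytosolic synthetase genes were higher with fish oil/pectin. Of 21 cytosolic genes 15 rose, 1 fell and 5 were not called, with a median log2 fold change of 0.32, whereas the median over all tested genes was -0.0053. The shares over all tested genes were 22.1% higher and 20.6% lower. The increases were small, from 0.27 for Wars to 0.62 for Mars1. Among the 16 mitochondrial synthetases 7 rose, 0 fell and 9 were not called, with a median of 0.13. With each library's trend on exon length removed, 18 cytosolic and 10 mitochondrial genes rose, with medians of 0.37 and 0.22. In that fit 20.7% of all tested genes were higher. Both scaffold genes, Aimp1 and Aimp2, rose. Taken over the 39 genes, 24 rose and 1 fell, and the median was 0.29.

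**Figure D1:**
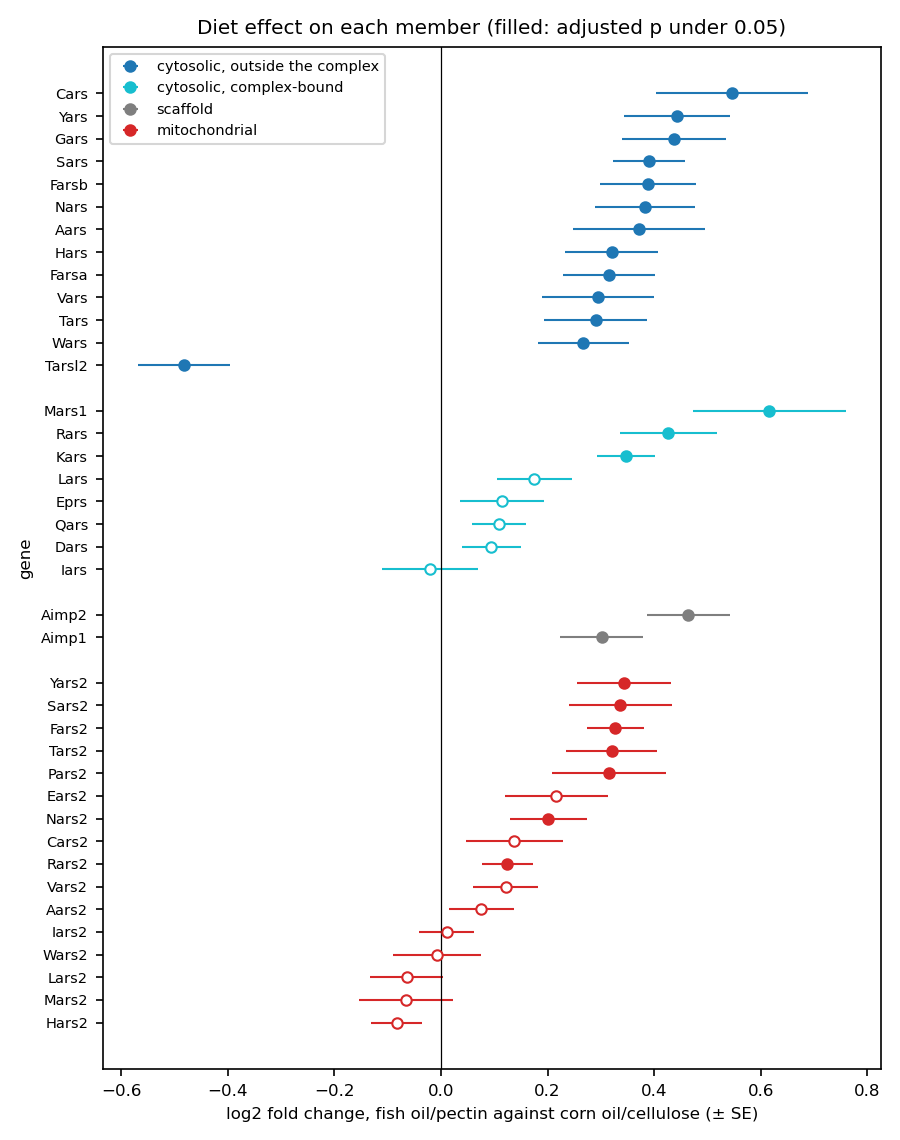
Log2 fold change of each of the 39 genes, fish oil/pectin against corn oil/cellulose, with bars of 1 SE; filled points have an adjusted p under 0.05 and the colours give the class. The cytosolic enzymes outside the multisynthetase complex lie at 0.27 to 0.55 apart from Tarsl2 at -0.48, and the mitochondrial enzymes reach from -0.083 to 0.34.

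Lysyl-tRNA synthetase, Kars (ENSMUSG00000031948.14, chromosome 8, 111993443 to 112011323, minus strand, GRCm38), had the lowest p of the cytosolic genes. It stood at 160 to 181.6 CPM (median 175.4) with corn oil/cellulose and 184.1 to 251.1 CPM (median 230.5) with fish oil/pectin. No fish oil/pectin library reached down into the corn oil/cellulose range, and the log2 fold change was 0.35 ± 0.054 (SE, adjusted p = 0.000484). Such a separation over all 16 libraries was seen in 3 members, Kars, Rars and Fars2, and in 2.32% of all tested genes. The reverse, every fish oil/pectin library below, was seen in 0 members and 1.08% of all tested genes.

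The seryl enzyme Sars (chromosome 3, 108424865 to 108445209, minus strand) ran from 132.7 to 162.2 CPM (median 144.1) with corn oil/cellulose and from 148.3 to 235.5 CPM (median 196.2) with fish oil/pectin. The ranges overlapped through fish oil/pectin library 2, at 148.3 CPM, and the log2 fold change was 0.39 ± 0.068 (adjusted p = 0.000635). Arginyl-tRNA synthetase, Rars (chromosome 11, 35808381 to 35834506, minus strand), ran from 97.48 to 133.6 CPM (median 115.8) and from 135 to 244.1 CPM (median 153.4), with a log2 fold change of 0.43 ± 0.091 (adjusted p = 0.00167). The Rars ranges did not overlap, but by a margin of less than 2 CPM.

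Gars (chromosome 6, 55038007 to 55079500, plus strand), the glycyl enzyme, was the most abundant of the 39 genes per exon length, with a median of 60.5 RPKM. It measured 139 to 196.2 CPM (median 162.5) with corn oil/cellulose and 188 to 364.8 CPM (median 222.9) with fish oil/pectin, a log2 fold change of 0.44 ± 0.097 (adjusted p = 0.00217). Tyrosyl-tRNA synthetase, Yars (chromosome 4, 129189760 to 129219607, plus strand), measured 60.35 to 95.75 CPM (median 76.7) and 86.77 to 155.3 CPM (median 101.1), a log2 fold change of 0.44 ± 0.099 (adjusted p = 0.0023). In both genes the highest value belonged to fish oil/pectin library 7, and the next highest library of that diet was at 238.8 CPM for Gars and 110.7 CPM for Yars. Without library 7 their log2 fold changes were 0.33 and 0.35, and both still passed.

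The largest increases were those of methionyl-tRNA synthetase, Mars1, which supplies initiator as well as elongator transfer RNA, and of the cysteinyl enzyme Cars. Mars1 (chromosome 10, 127296221 to 127311786, minus strand) lay at 33.43 to 57.43 CPM (median 45.66) with corn oil/cellulose and 53.1 to 110.1 CPM (median 63.18) with fish oil/pectin, a log2 fold change of 0.62 ± 0.14 (adjusted p = 0.003). The ranges overlapped narrowly, since the lowest fish oil/pectin library was above 7 of the 9 corn oil/cellulose libraries. Its exons share 68 bases with Ddit3 on the opposite strand, and Ddit3 did not pass (0.012). Cars lay at 26.26 to 44.64 CPM (median 34.52) and 40.14 to 92.74 CPM (median 43.98), with a log2 fold change of 0.55 ± 0.14 (adjusted p = 0.00611).

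The other cytosolic genes that rose were Farsb and Farsa, the subunits of phenylalanyl-tRNA synthetase (0.39 and 0.32), Nars (asparaginyl, 0.38), Aars (alanyl, 0.37), Hars (histidyl, 0.32), Vars (valyl, 0.29), Tars (threonyl, 0.29) and Wars (tryptophanyl, 0.27). The exons of Aars share 1326 bases with Exosc6 on the same strand. In fish oil/pectin library 7 Aars was at 215.2 CPM against at most 128.9 CPM in the other libraries of that diet. Without that library its log2 fold change was 0.24, still past the threshold. Vars was the least stable of these, and lost its call in 7 of the 16 fits that each left out 1 library: fish oil/pectin 1, 2, 6 or 7, or corn oil/cellulose 4, 6 or 9 (0.22 to 0.29).

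Tarsl2 (chromosome 7, 65644898 to 65692091, plus strand) was the single member that fell. It stood at 11 to 15.07 CPM (median 12.19) with corn oil/cellulose and 6.522 to 11.14 CPM (median 8.796) with fish oil/pectin, and fell by 0.48 ± 0.086 on the log2 scale (adjusted p = 0.000732). The ranges touched only between the lowest corn oil/cellulose library and the highest fish oil/pectin one. Tars, which encodes the main threonyl enzyme, had a log2 fold change of 0.29 ± 0.096 in the other direction, from 110.6 to 153.7 CPM with corn oil/cellulose to 127.3 to 216.4 CPM with fish oil/pectin. Per exon length Tarsl2 was the lowest of the 39 genes, with a median of 1.69 RPKM against 23.1 RPKM for Tars. Its exons share 120 bases with Tm2d3 on the same strand.

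All 5 cytosolic genes that were not called encode enzymes of the multisynthetase complex. They are Dars (aspartyl, 0.095), Eprs (a fused glutamyl and prolyl enzyme, 0.11), Iars (isoleucyl, -0.020), Lars (leucyl, 0.17) and Qars (glutaminyl, 0.11). Of the 8 complex-bound enzymes 3 rose, namely Kars, Mars1 and Rars, with a median of 0.14 over the 8. Of the 13 enzymes outside the complex 12 rose and 1 fell, with a median of 0.37. Over all tested genes 22.1% were higher and 20.6% lower. The difference between these lists was not tested. After each library's trend on exon length was removed, 6 of the 8 and 12 of the 13 rose, with Eprs at 0.47, Lars at 0.24 and Qars at 0.22, against 20.7% of all tested genes higher in that fit. The scaffold genes Aimp1 and Aimp2 of the same complex rose. Aimp2, whose product holds lysyl-tRNA synthetase in the complex, went from 20.99 to 30.81 CPM (median 28.8) to 29.55 to 52.01 CPM (median 37.97), a log2 fold change of 0.46 ± 0.078 (adjusted p = 0.000566). The Aimp2 ranges overlapped by little more than 1 CPM. Aimp1, which also yields a secreted cytokine, went from 56.6 to 68.81 CPM (median 64.19) to 62.77 to 97.21 CPM (median 77.77), a log2 fold change of 0.30 ± 0.078 (adjusted p = 0.00528).

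Synthetases fall into classes I and II by the fold of their catalytic domain. Of 18 class I genes 8 rose and 0 fell, with a median of 0.16, and of 18 class II genes 14 rose and 1 fell, with a median of 0.32. Over all tested genes the shares were 22.1% higher and 20.6% lower, and the difference between the classes was not tested. Eprs has a domain of each class and Aimp1 and Aimp2 have none, so these 3 are in neither list.

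Fars2, the mitochondrial phenylalanyl enzyme (chromosome 13, 36117412 to 36726280, plus strand), was the mitochondrial gene with the lowest p. It lay at 42.33 to 47.67 CPM (median 45.12) with corn oil/cellulose and 47.82 to 65.2 CPM (median 57.63) with fish oil/pectin, and its log2 fold change was 0.33 ± 0.054 (adjusted p = 0.000561). The ranges did not overlap, and the 2 fish oil/pectin libraries without the GC prefix were the lowest of their diet. Its exons share 616 bases with Lyrm4 and Nrn1 on the opposite strand, and no source used here gives the strand setting of the counting.

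Yars2 (tyrosyl, chromosome 16, 16302965 to 16309640, plus strand) was at 18.39 to 23.71 CPM (median 19.59) with corn oil/cellulose and 21.06 to 33.7 CPM (median 24.61) with fish oil/pectin, a log2 fold change of 0.34 ± 0.088 (adjusted p = 0.00509). The threonyl gene Tars2 (chromosome 3, 95739976 to 95760206, minus strand) was at 37.65 to 50.89 CPM (median 43.92) and 46.15 to 73.75 CPM (median 52.62), a log2 fold change of 0.32 ± 0.085 (adjusted p = 0.00643). For the seryl gene Sars2 (chromosome 7, 28741992 to 28753871, plus strand) the values were 15.12 to 20.35 CPM (median 16.51) and 18.2 to 30.78 CPM (median 20.52), a log2 fold change of 0.34 ± 0.097 (adjusted p = 0.0101). In all 3 genes the ranges overlapped and fish oil/pectin library 7 held the highest value.

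Pars2 (prolyl, chromosome 4, 106651069 to 106655282, plus strand) was at 7.313 to 10.38 CPM (median 7.71) with corn oil/cellulose and 9.185 to 13.33 CPM (median 9.946) with fish oil/pectin. The ranges overlapped, and the log2 fold change was 0.32 ± 0.11 (adjusted p = 0.0245). Pars2 was no longer called without corn oil/cellulose library 6 (0.28, adjusted p = 0.0543), nor without fish oil/pectin library 7 (0.25, adjusted p = 0.052). Nars2 (asparaginyl, 0.20) and Rars2 (arginyl, 0.12) passed more narrowly still. Nars2 lost its call in 5 fits, without fish oil/pectin 1, 2 or 6 and without corn oil/cellulose 4 or 9 (0.16 to 0.19), and Rars2 in 13 of 16 such fits (0.11 to 0.13), all but those without fish oil/pectin 4 and without corn oil/cellulose 2 or 8.

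The 9 mitochondrial genes that were not called spanned -0.083 for Hars2, the histidyl enzyme, to 0.22 for Ears2, the glutamyl enzyme that also charges the glutamine transfer RNA before its amidation. Hars2 shares 195 exon bases with its cytosolic partner Hars, which lies head to head with it on the opposite strand, and Hars rose by 0.32. The other genes of this group were Cars2 (0.14), Vars2 (0.12), Aars2 (0.075), Iars2 (0.011), Wars2 (-0.0076), Lars2 (-0.065) and Mars2 (-0.066).

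**Figure D2:**
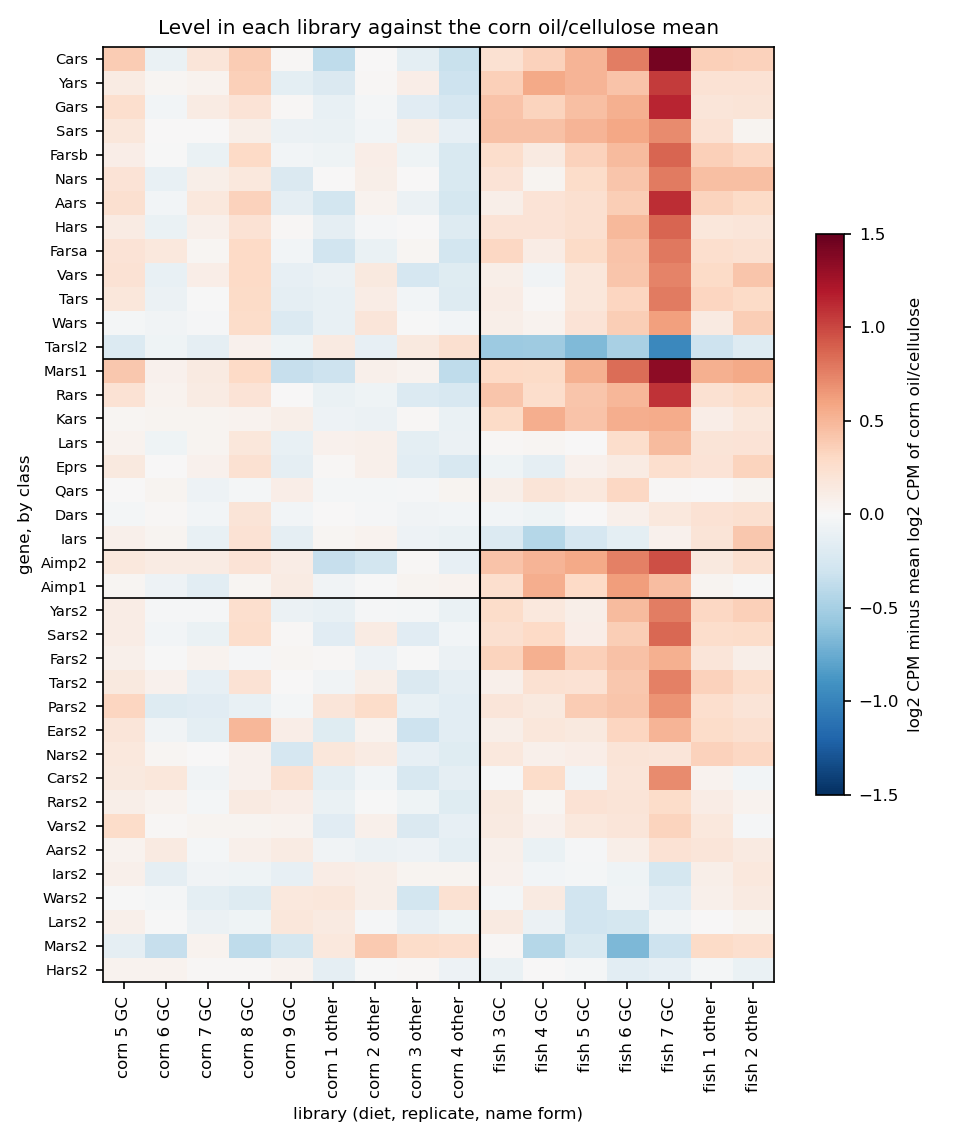
Level of each gene in each of the 16 libraries as log2 CPM minus the corn oil/cellulose mean, red above and blue below it, with libraries ordered by diet and name form and genes by class. Fish oil/pectin library 7 is the darkest column, and the row of Tarsl2 is blue in every fish oil/pectin library.

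Cytosolic and mitochondrial enzymes with matching symbols for the same amino acid were set side by side in 13 pairs. Tarsl2, Eprs, Farsa and Farsb were not paired. Both partners rose for asparagine, arginine, serine, threonine and tyrosine (5 pairs), the cytosolic one alone was called in 6, and neither was called for isoleucine or leucine. In 0 of these 13 pairs did the partners go in opposite directions past the threshold. Outside them, Tarsl2 was called lower (-0.48) and Tars2, the mitochondrial threonyl gene, higher (0.32). Pars2 was called higher (0.32), whereas Eprs (0.11) and Ears2 (0.22) were not called. Fars2 (0.33), Farsa (0.32) and Farsb (0.39) all rose. The log2 fold change was larger for the cytosolic partner in 11 of 13 pairs, the exceptions being isoleucine and threonine, with a median difference of 0.24. The widest gap was for methionine, with Mars1 at 0.62 and Mars2 at -0.066. A call in 1 partner and not in the other does not show that the partners differed, and the differences within pairs were not tested.

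Per exon length the cytosolic genes were the more abundant. Their median level was 23.1 RPKM, from 1.69 RPKM for Tarsl2 to 60.5 RPKM for Gars, and that of the mitochondrial genes was 5.83 RPKM, from 2.20 RPKM for Mars2 to 20.9 RPKM for Rars2. The median of all tested genes was 5.65 RPKM, and 30 of the 39 members lay above it. The cytosolic partner was higher in 12 of 13 pairs, by up to 17.6 times for Nars (55.5 RPKM) against Nars2 (3.16 RPKM). The exception was isoleucine, where Iars was at 16.7 RPKM and Iars2 at 20.1 RPKM, and Iars2 shares 2148 exon bases with genes on the opposite strand. Neighbours in this order often overlapped between libraries: with corn oil/cellulose Gars spanned 44.6 to 62.9 RPKM and Nars 43.5 to 58.6 RPKM.

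**Figure D3:**
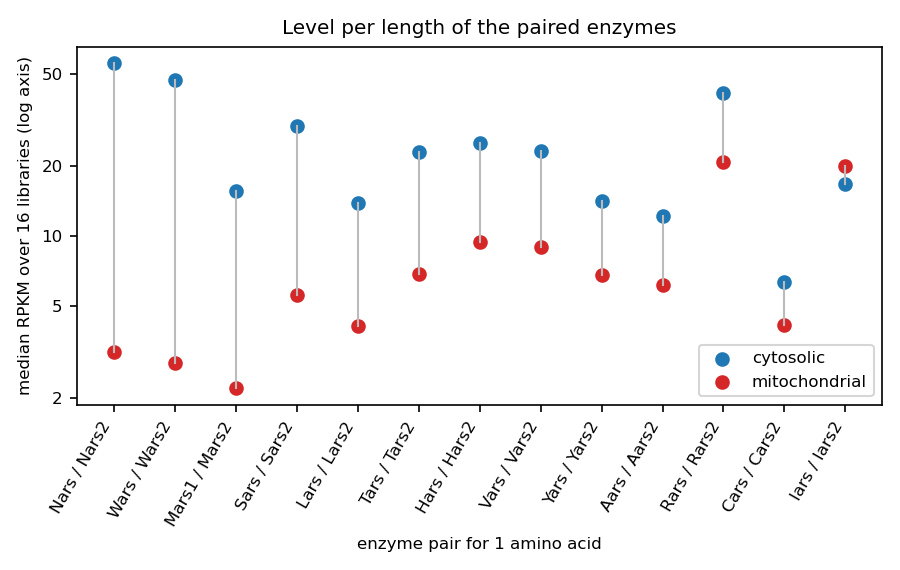
Median RPKM over the 16 libraries (log axis) of the cytosolic and the mitochondrial enzyme for each of 13 amino acids, ordered by the ratio between them. The cytosolic point is above the mitochondrial one in each pair but Iars and Iars2.

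Within the GC-named libraries the median log2 fold change was 0.33 for cytosolic and 0.11 for mitochondrial genes, and within the others it was 0.33 and 0.17. In the joint fit with a diet effect for each name form, 13 cytosolic genes rose and 1 fell among the GC-named libraries, where 23.5% of all tested genes were higher and 22.3% lower. In the others 0 members and 0 of all tested genes passed by edgeR. Their unadjusted p was under 0.05 for 13 cytosolic and 7 mitochondrial genes there, as for 17% of all tested genes. Fitted alone, the GC-named libraries gave 8 cytosolic and 2 mitochondrial genes higher (20% of all tested genes higher), and the others 12 and 2 (4.34%), with 0 members lower (2.02% of all tested genes). The libraries numbered in the 700s, 4 corn oil/cellulose and 7 fish oil/pectin, gave 3 cytosolic and 1 mitochondrial gene higher (8.4%) and 1 cytosolic gene lower (7.5%). DESeq2 on all libraries gave the counts of the edgeR fit, 15 cytosolic genes higher and 1 lower and 7 mitochondrial genes higher.

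In the libraries without the GC prefix both fish oil/pectin libraries lay above all 4 corn oil/cellulose libraries in 17 of 21 cytosolic and 9 of 16 mitochondrial genes, as did 18.3% of all tested genes. Of the cytosolic genes 1, Tarsl2, was below, as were 17.2% of all tested genes. In the GC-named libraries, with 5 of each diet, 5 cytosolic genes (Gars, Kars, Rars, Sars and Yars), 1 mitochondrial gene (Fars2) and both scaffold genes lay wholly above, against 15.4% of all tested genes, and Tarsl2 and Hars2 lay wholly below, against 14%.

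The diet effect differed between the name forms in 2 of the 39 genes, as it did in 8.77% of all tested genes. Iars in the GC-named libraries was at 81.12, 82.97, 91.86, 93.78 and 103.5 CPM with corn oil/cellulose and 66.3, 74.76, 77.25, 80.51 and 93.31 CPM with fish oil/pectin. In the others it was at 83.57, 84.99, 91.34 and 92.55 CPM with corn oil/cellulose and 102.1 and 117.7 CPM with fish oil/pectin. It therefore stood low in 4 of the 5 GC-named fish oil/pectin libraries and high in both of the others. The log2 fold changes were -0.21 and 0.32, and their difference was 0.53 ± 0.14 (adjusted p = 0.0349). That call was lost when any of 7 libraries was left out: fish oil/pectin 1 or 2, or corn oil/cellulose 3, 4, 5, 6 or 8.

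Aimp1 showed the converse. In the GC-named libraries it was at 56.6, 59.87, 64.19, 64.2 and 68.81 CPM with corn oil/cellulose and 75.11, 77.77, 87.02, 91.91 and 97.21 CPM with fish oil/pectin, with no overlap. In the others it was at 60.78, 62.64, 64.97 and 65.49 CPM and at 62.77 and 65.02 CPM, within the same range. The log2 fold changes were 0.45 and 0.01, with a difference of -0.44 ± 0.12 (adjusted p = 0.0381). It was lost in 11 of 16 fits that left out 1 library: those without fish oil/pectin 1, 2, 4 or 6 or corn oil/cellulose 2, 3, 4, 5, 6, 7 or 8.

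**Figure D4:**
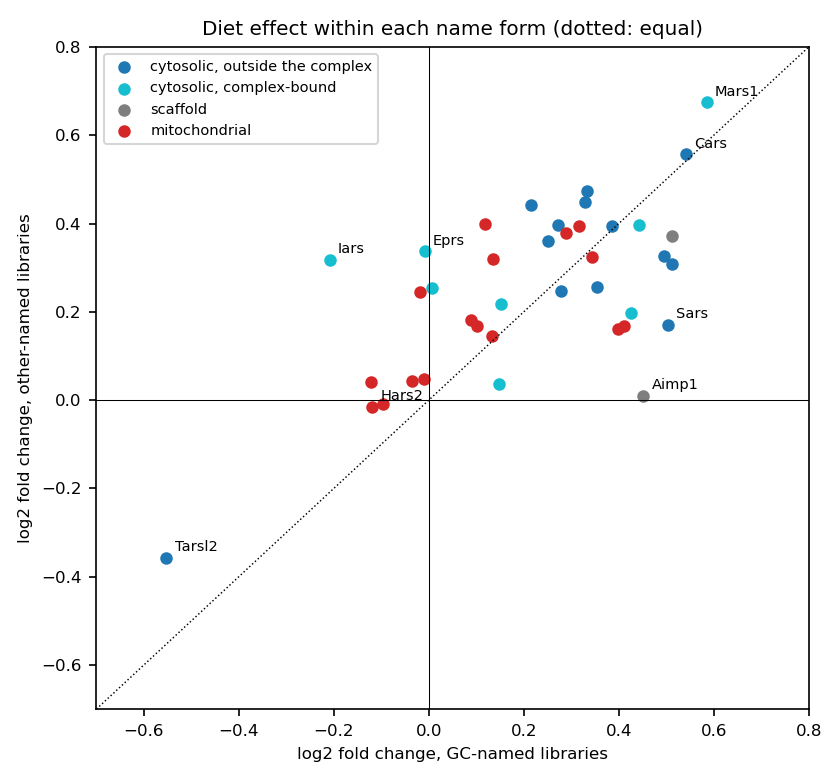
Log2 fold change of each gene in the GC-named libraries (x axis) and in the other libraries (y axis), coloured by class, with equal values on the dotted line. Iars lies at -0.21 and 0.32 and Aimp1 at 0.45 and 0.01, and Tarsl2 is negative on both axes.

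Fish oil/pectin library 7 held the highest value of all 16 libraries in 26 of the 39 genes, 16 of them cytosolic. How many of all tested genes were highest in that library was not counted. With library 7 left out, 15 cytosolic genes rose and 1 fell, with a median of 0.24, and 5 mitochondrial genes rose. In that fit 2701 of 13917 tested genes were higher, 51% of the 5296 called. Without libraries 6 and 7 together 11 cytosolic and 4 mitochondrial genes rose, with medians of 0.22 and 0.096, and 15.4% of all tested genes were higher. In that fit Aars, Tars, Vars and Wars lost their calls (0.17 to 0.22), and the log2 fold change of Cars was 0.34. The mean log2 CPM of non-epithelial markers, used as a covariate, left the cytosolic median at 0.31 and the mitochondrial one at 0.20. That mean weighs each marker equally, including those that failed the filter. The unadjusted p by edgeR was under 0.05 in 15 and 8 genes, as in 3720 of 13825 tested genes. After adjustment 0 members passed in that fit, in which 0.0579% of all tested genes were higher. Scaled by total counts alone, 11 cytosolic and 4 mitochondrial genes rose (16.3% of all tested genes higher, 26.7% lower), and 37.8% of all calls were higher against 51.7% with TMM.

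Of the 13 synthetases commonly listed as ATF4 targets 10 rose, with a median of 0.37, and of the 8 other cytosolic genes 5 rose and 1 fell, with a median of 0.32. The 3 listed targets that were not called were Eprs, Iars and Lars. Other genes of the amino acid response were counted beside them: of 20 fixed genes 18 were tested, 9 rose and 1 fell, with a median of 0.29, against 22.1% of all tested genes higher and 20.6% lower. Asns, which encodes asparagine synthetase, was at 21.71 to 34.98 CPM (median 24.73) with corn oil/cellulose and 26.39 to 82.9 CPM (median 38.46) with fish oil/pectin. The log2 fold change of Asns was 0.67 ± 0.20 (adjusted p = 0.0141), and 0.44 without fish oil/pectin library 7, which held its highest value.

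The largest log2 fold changes of that list were those of Phgdh, Psat1 and Mthfd2. Phgdh, which starts serine synthesis, was at 4.109 to 10.2 CPM (median 5.558) with corn oil/cellulose and 8.408 to 36.1 CPM (median 11.61) with fish oil/pectin, a log2 fold change of 1.33 ± 0.32 (adjusted p = 0.00392). The 2 highest values were those of fish oil/pectin libraries 6 and 7, at 25.6 and 36.1 CPM. Psat1, the next enzyme of that route, rose by 0.97 on the log2 scale, the mitochondrial folate enzyme Mthfd2 0.88 and Shmt2, which interconverts serine and glycine, 0.48. Psat1 was at 25.54 and 45.43 CPM in fish oil/pectin libraries 6 and 7, and Mthfd2 at 16.3 and 38.16 CPM. In fish oil/pectin libraries 1 and 2 Psat1 was at 18.86 and 18.64 CPM and Mthfd2 at 18.05 and 15.56 CPM. In fish oil/pectin libraries 3, 4 and 5 both genes lay inside their corn oil/cellulose ranges. Eif4ebp1, a repressor of cap-dependent initiation, rose by 0.58, and Vldlr, a lipoprotein receptor gene, fell by 0.56.

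The regulators themselves were not called. Atf4 was at 138.1 to 253.5 CPM (median 220.6) with corn oil/cellulose and 141.3 to 409.7 CPM (median 249.5) with fish oil/pectin, and its log2 fold change was 0.19 ± 0.099 (adjusted p = 0.125). The ranges overlapped over most of their length, and the 6 libraries without the GC prefix, at 138.1 to 169.2 CPM, were the lowest 6. The log2 fold change of Eif2ak4 was -0.028 ± 0.075 (adjusted p = 0.789) and Ddit3, a further transcription factor of the pathway, 0.012. ATF4 is controlled largely at translation, which messenger RNA levels do not measure.

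**Figure D5:**
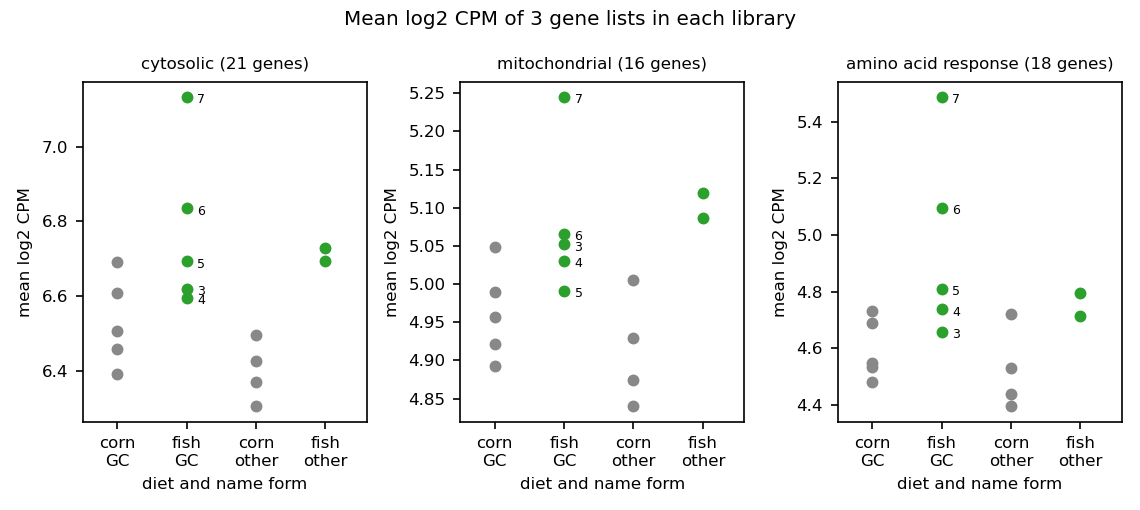
Mean log2 CPM of the cytosolic synthetases, the mitochondrial synthetases and the tested amino acid response genes in each library, by diet and name form, with fish oil/pectin libraries 3 to 7 numbered and a separate y axis for each panel. Fish oil/pectin library 7 is the highest in all 3 panels, at 7.13, 5.25 and 5.49.

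The library means of the lists show how far single libraries carried these values. The cytosolic mean ran from 6.39 to 6.69 log2 CPM in GC-named corn oil/cellulose libraries and was 6.59, 6.62, 6.69, 6.84 and 7.13 in the GC-named fish oil/pectin libraries, so that 2 of the 5 stood inside the corn oil/cellulose range and library 5 at its upper edge. In the other libraries it ran from 6.30 to 6.50 with corn oil/cellulose and was 6.69 and 6.73 with fish oil/pectin. The mitochondrial mean overlapped between diets in the GC-named libraries, at 4.89 to 5.05 and 4.99 to 5.25.

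Of 10 amino acid transporter genes 1 rose and 4 fell, against 22.1% of all tested genes higher and 20.6% lower. Slc7a5, the light chain of the large neutral amino acid exchanger, rose by 0.55 on the log2 scale. Slc38a2 and Slc38a1, sodium-coupled neutral amino acid transporters, fell by 0.27 and 0.32, Slc6a14, a broad neutral and cationic amino acid transporter, by 0.39 and Slc7a8, another exchanger light chain, by 0.62. The list median was -0.041.

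Of 9 tested factors that handle charged transfer RNA in the cytosol or bind the synthetases, 6 rose and 0 fell, with a median of 0.25, against 22.1% of all tested genes higher and 20.6% lower. Subunits of the nucleotide exchange factor of eEF1A led them, Eef1g at 0.46, Eef1d at 0.54 and Eef1b2 at 0.40. In GC-named and other libraries Eef1g was at 0.60 and 0.19, Eef1d at 0.70 and 0.21 and Eef1b2 at 0.56 and 0.098, and of the 9 genes Eef1b2 differed between the forms (adjusted p = 0.043). In the others 0 of the 9 had an unadjusted p under 0.05. Eef1e1, a small factor bound to the multisynthetase complex, was not counted among the scaffold genes here. It was at 13.68 to 19.47 CPM (median 16.41) and 16.75 to 23.8 CPM (median 18.8), a log2 fold change of 0.25 ± 0.086 (adjusted p = 0.0274). Eef1e1 lost its call when corn oil/cellulose library 6 was left out, and likewise for fish oil/pectin library 6 and library 7 (0.21 to 0.23). Eef2, the translocation factor, was at 0.019 and did not pass.

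In the mitochondrion 5 of 15 charging and elongation partners rose and 0 fell, with a median of 0.11, against 22.1% of all tested genes higher and 20.6% lower. They were the elongation factors Tufm (0.34), Tsfm (0.48) and Gfm1 (0.18), the initiation factor Mtif3 (0.26) and the transfer RNA thiolase Trmu (0.24). The amidotransferase subunits Gatb (0.13), Gatc (0.11) and Qrsl1 (0.092), which finish the glutamine transfer RNA charged by Ears2, were not called.

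Tryptophanyl-tRNA synthetase, Wars, is also an interferon gamma response gene, so it was set beside that list. It was at 133.9 to 185.9 CPM (median 150.9) with corn oil/cellulose and 160.1 to 236.1 CPM (median 176.9) with fish oil/pectin, with overlap, and its log2 fold change was 0.27 ± 0.085 (adjusted p = 0.018). Of 8 tested interferon gamma response genes 2 rose, the immunoproteasome subunits Psmb8 (0.46) and Psmb9 (0.29), and the median of the list was 0.059. That count is near the 22.1% of all tested genes that were higher.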

How the data were processed

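The values are raw read counts per gene symbol, 1 column per library, as deposited by the authors. STAR 2.6.0a, HTSeq 0.11.1 and the build GRCm38 are named per the submitters' processing notes. The counting's strand setting was not given in the sources used here, and 15 of the 39 genes share exon bases with a gene on the opposite strand. Aars and Tarsl2 share exon bases with a gene on the same strand. A stranded mRNA kit was used on 200 ng of RNA, per the labels' protocols. Unused per-sample columns numbered 0. Between libraries of the same diet the chi-square per degree of freedom was 8.20 to 141 (57 pairs), so none were taken for repeat deposits of 1 library.

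Counts were fitted with edgeR 4.0.16 (R 4.3.3): TMM, filterByExpr on the diet groups (13825 genes, 99.9% of counts), robust quasi-likelihood, name form and diet as terms, and a joint fit with their interaction. The SE is the log2 fold change's size divided by the square root of F. Exon lengths and coordinates are from GENCODE M21, and promoters from RefSeq. A simulation on 13724 genes with the same test recovered 39.8% of 98 genes changed by 0.4 log2 and 84.8% of 99 changed by 1. It held no name form effect, and far fewer genes changed in it than the 42.7% called in the data. Its recovery therefore does not measure that of the main fit. Other settings used limma 3.58.1, DESeq2 1.42.0, other scalings and filters, subsets of libraries, covariates for sex (from 4 Y-linked genes) and marker score, and removal of the exon length trend (loess, span 0.3). The filter on the full model was added after seeing the data.

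Genes given per library were up to 6 cytosolic and 5 mitochondrial enzymes called with the lowest p, both scaffold genes, those whose diet effect differed by name form, and 8 fixed genes. Up to 3 genes with the lowest p came from each partner list. Aars, Cars, Mars1, Tars, Phgdh and the other examples were chosen after their values were seen. The members and lists were chosen with earlier results of these data known.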

Additional observations from a re-analysis of the deposited data

Results flagged for a closer look

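In 8 of the 78 groups of libraries examined (39 genes in each diet), 1 library stood apart from the rest of its group by Dixon's criterion on log2 CPM, which chance alone meets in about 1 group in 20. Fish oil/pectin library 7 was that library in 7 of the 8. It stood at 364.8 CPM for Gars against a next highest value of 238.8 CPM. Rars was at 244.1 CPM there (next 162.5), Tars at 216.4 CPM (next 157.9), Aars at 215.2 CPM (next 128.9) and Yars at 155.3 CPM (next 110.7). Among mitochondrial genes, Cars2 was at 47.94 CPM (next 35.44) and Sars2 at 30.78 CPM (next 21.98). The remaining case was Dars in corn oil/cellulose library 8, at 84.16 CPM (next 74.62). How often other tested genes met this criterion was not counted.

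The diet effect differed between libraries without and with the GC prefix for Iars, by a log2 difference of 0.53, and for Aimp1, by -0.44, by the interaction test in edgeR.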

How the results depend on the processing

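The lowest count of any member in a library was 109 (Pars2). The part of sampling depth in these results was not tested. With each library left out in turn, called genes ranged from 5043 to 6001 over all genes, from 14 to 16 for cytosolic genes higher, 5 to 8 for mitochondrial, 3 to 4 for complex-bound and 11 to 12 for other cytosolic genes, with 1 cytosolic gene lower and 2 scaffold genes higher throughout. Genes whose diet effect differed by name form ranged from 6 (without fish oil/pectin library 2) to 1765, and members from 0 to 4. Deviations from the diet mean of the 7 same-numbered pairs of libraries correlated at -0.075 to 0.51. Name form was not removed from these deviations, so they cannot tell whether the replicate numbers pair the libraries. With the replicate block 3502 genes, 15 cytosolic, 3 mitochondrial and 1 scaffold gene higher were called, and Iars was at 0.033 and Iars2 at -0.044.

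Called genes numbered 900 when only libraries lacking the GC prefix were fitted, 2230 in those numbered in the 700s and 36 with the marker covariate. Cytosolic genes higher were 8 in GC-named libraries alone, 3 in the 700s and 0 with the marker covariate. The 1 lower was 0 in the libraries without the prefix and with the marker covariate. Mitochondrial genes higher were 2 in either name form alone, 1 in the 700s, 4 without fish oil/pectin libraries 6 and 7, 4 by total counts (with 1 lower) and 0 with the marker covariate. Scaffold genes were 0 without the prefix, 1 in the 700s and 0 with the covariate. Complex-bound genes were 1 in the 700s, 0 with the covariate and 6 without the length trend, and other cytosolic genes 5 in GC-named libraries, 2 in the 700s and 0 with the covariate. By total counts 4 members differed by name form, and Aimp1 was at -0.32 (adjusted p = 0.1). The cause was not tested.

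Signs turned only in genes that were not called. In GC-named libraries alone Aars2 was at -0.037, Dars at -0.012, Eprs at -0.029 and Iars2 at -0.028. Without the prefix Iars was at 0.33, Lars2 at 0.054, Mars2 at 0.0042, Wars2 at 0.055 and Eif2ak4 at 0.23. With the marker covariate Iars was at 0.18, Lars2 at 0.085, Wars2 at 0.092 and Eif2ak4 at 0.073, and without the length trend Iars at 0.042, Lars2 at 0.17, Mars2 at 0.17, Wars2 at 0.082 and Eif2ak4 at 0.11. Without libraries 6 and 7 Wars2 was at 0.0075 and Eif2ak4 at 0.013. Iars2 was at -0.012 without the name form term, -0.015 in the 700s and -0.058 by total counts, Wars2 at 0.013 with sex as covariate and Cars2 at -0.0053 by voom. Single leave-outs spanned -0.10 to 0.025 for Iars, -0.016 to 0.041 for Iars2, -0.047 to 0.026 for Wars2 and -0.092 to 0.0024 for Eif2ak4. Of 33 settings, 31 called Kars, Farsb, Gars, Tarsl2, Sars, Rars, Mars1, Fars2, Yars and Aimp2.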
